A study of Triticum aestivum and Zea mays with 29 samples.

Results

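Adenine base editing at 4 endogenous wheat targets was measured after multiplex delivery, in which the 4 crRNAs were sent into the same cells, and after simplex delivery, in which each target was edited in its own transfection. The members are the 3 multiplex and 3 simplex amplicon libraries of these experiments, 6 of the 29 samples of the series. They were chosen by experiment and not by their values. Mesophyll protoplasts from leaves of the wheat cultivar Fielder received a Cas12a adenine base editor and crRNA plasmids, GFP-positive cells were sorted, and the targets were amplified from the sorted cells and sequenced. All multiplex samples came from one experiment and all simplex samples from another, so that delivery mode and experiment cannot be told apart. The GEO titles mark only the multiplex libraries by name. The other experiment is taken as simplex because the header of its table names the figure panel that the study describes as simplex.

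Both tables list the same 4 editor plasmids. Each carries the maize ubiquitin promoter, a TadA8e or TadA9 deaminase, an LbCas12a with D832A and a P2A-GFP tail. The D156R substitution is present in 3 of these 4 editors, and 1 editor also holds a 6xGGGGS linker. They also list, for each target, a crRNA plasmid with the TaU3 promoter and a truncated tRNA, and a crRNA plasmid with the CaMV 35S promoter and flanking ribozymes. Each table has 7 numbered arms with replicates 1 to 3, hence 21 columns. No key in the tables ties an arm number to an editor, a crRNA system or a control, so arms are given by number only, and the same number in both tables is not known to be the same construct.

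Cas12a is an RNA-guided nuclease that binds DNA next to a T-rich PAM lying 5′ of the protospacer. In an adenine base editor its cutting activity is removed and a TadA deaminase is fused to it. The deaminase turns adenine into inosine on the displaced DNA strand, which polymerases copy as guanine, so that editing is read as A-to-G conversion. Only adenines within a stretch of the protospacer are accessible, and one guide can convert several of them.

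The spacers of the 4 crRNAs are shown because the comparison runs over the adenines in them. They are written 5′ to 3′, the base next to the PAM is position 1, and the adenines with values in the tables are in capitals.
TS60-A: tctcctAcAAAgctAgagtatca
TS105-B: gtcttacAAgAggaaaggtgggg
TS112-A: aagataAAtAtgagtcagaccgt
TS121-D: tctccctAAtAttgctcgtcttt

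TS60-A lies in TraesCS5A02G371500 and TS112-A in TraesCS5A02G401700, both on chromosome 5A by their gene identifiers. TS105-B lies in TraesCS3B02G299400 on chromosome 3B, and TS121-D in TraesCS4D02G182700 on chromosome 4D. The coordinates and the exon or intron position of the sites were not analysed here. The PAM was TTTC at TS60-A and TS105-B, TTTA at TS112-A and TTTG at TS121-D. The spacers are 23 bases long and hold 28 adenines, of which 14 have values in the tables, the first at position 7 and the last at position 15. A thymine precedes 5 of the 14, an adenine 6, a cytosine 2 and a guanine 1. The guides match one wheat subgenome perfectly: the spacer of TS112-A differs from its D copy by C21G, that of TS60-A from its B copy by T21A, and that of TS105-B from its A copy by C7G, counted from position 1 with the guide's base first.

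There were 294 values for multiplex and 273 for simplex, because the simplex table lists no TS105-B value in replicate 3. Of these, 86 multiplex values (29.3%) and 79 simplex values (28.9%) were above 0. The smallest value above 0 was 0.20% in the multiplex table and 0.21% in the simplex table, and a listed 0 cannot be told from conversion below that size. Read depth is not part of the tables, so no counting interval can be given for a single value. The median of the values above 0 was 0.905% in the multiplex table and 1.25% in the simplex table, while the highest value was nearly alike, 10.98% and 10.75%. Both of these highest values were at A10 of TS112-A in arm 6.

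The leading adenines were the same in multiplex and simplex. In both tables the most converted adenine was A9 at TS60-A, A8 at TS105-B, A10 at TS112-A and A11 at TS121-D. By means over replicates, the full order of the 3 listed adenines was the same in both tables at TS105-B, TS112-A and TS121-D. Single replicates did not always keep the lower ranks. At TS121-D in multiplex, A8 (0.395%) and A9 (0.385%) were nearly tied, and A9 exceeded A8 in replicates 1 and 3. At TS105-B in simplex, A9 exceeded A11 in replicate 2 (0.087% against 0.051%). At TS60-A, the order was A9, A11, A15, A10 and A7 in multiplex and A9, A11, A10, A15 and A7 in simplex. Over the 14 adenines, the mean level of the multiplex table followed that of the simplex table with a Spearman rho of 0.97, a description over points that share libraries and guides. That rho is over means of replicates, and single replicates gave lower values. Between same-numbered single replicates of the 2 tables rho was 0.86, 0.73 and 0.95, the last over 11 adenines. Between single replicates of one table rho lay between 0.66 and 0.97 in multiplex and between 0.52 and 0.96 in simplex. The same position number had different levels at different targets: A9 led at TS60-A, with 1.60% in multiplex and 2.03% in simplex, and averaged 0 in multiplex and 0.044% in simplex at TS105-B.

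**Figure D1:**
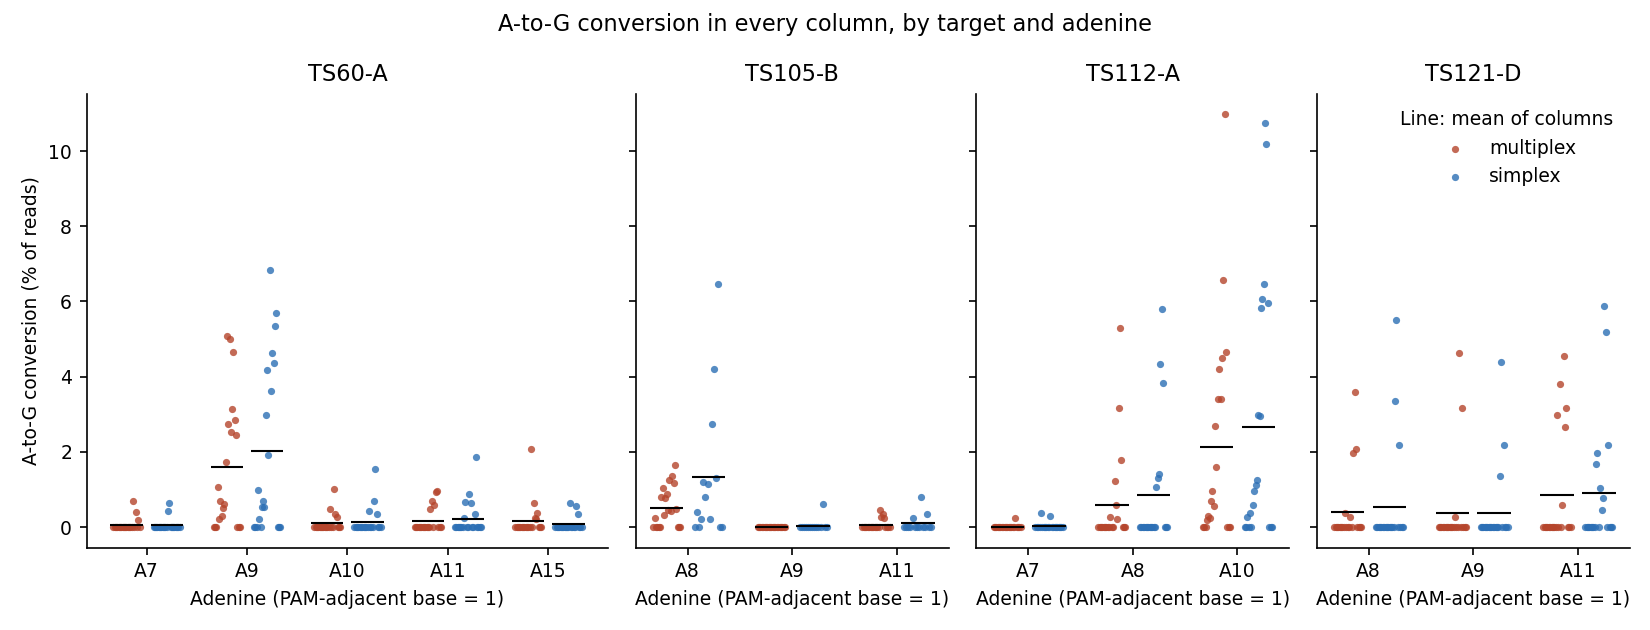
A-to-G conversion in percent of reads (y axis) for each listed adenine (x axis, the PAM-adjacent base being position 1) of 4 wheat targets, multiplex columns in red left of simplex columns in blue, with 1 dot for each arm and replicate and a line at their mean. The same adenine leads at each target in both tables, and at TS105-B A8 no multiplex dot exceeds 1.65% while the simplex dots reach 6.47%.

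The level of conversion was on average lower in multiplex, but at this replication the difference was not separated from the replicate spread. Target levels were computed for each replicate by averaging its listed adenines over the 7 arms. Over TS60-A, TS112-A and TS121-D, which have values in every replicate, the multiplex replicates stood at 0.748%, 0.623% and 0.509%, against 0.828%, 0.632% and 0.826% in the simplex replicates. The means were 0.627% ± 0.120 in multiplex and 0.762% ± 0.113 in simplex (SD, n = 3 each), a difference of -0.14 percentage points and a ratio of 0.823. The replicates of the tables overlapped (two-sided exact permutation test, p = 0.2). With 3 replicates against 3 this test cannot give a p below 0.1, and with the 2 simplex replicates of TS105-B its smallest p is also 0.1. No comparison between the tables could therefore pass 0.05, and a p above it does not show that the deliveries acted alike.

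TS105-B was the target with the lowest multiplex level relative to simplex. Its 3 multiplex replicates were at 0.207%, 0.236% and 0.138%, against 0.354% and 0.633% in the 2 simplex replicates. All multiplex replicates lay below both simplex replicates, with a ratio of means of 0.392 (exact permutation p = 0.1, 0.4 after Benjamini-Hochberg adjustment over the 4 targets). Of the 4 targets it was the only one without overlap. Random labels separate 3 replicates from 2 more often than 3 from 3, so the separation is not read as a result about this target. The difference was -0.30 percentage points, and -0.16 without simplex replicate 2.

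At TS112-A the multiplex replicates were at 0.906%, 1.11% and 0.733%, against 1.13%, 1.34% and 1.06% in simplex. The ratio was 0.780 and the ranges overlapped by a small margin (exact permutation p = 0.2, adjusted 0.4). At TS60-A the multiplex replicates were at 0.524%, 0.389% and 0.352%, against 0.515%, 0.522% and 0.472% in simplex, a ratio of 0.838 (exact permutation p = 0.4, adjusted 0.533). The direction turned on the log2 scale (difference 0.018) and with the median over arms (0.0027 percentage points). Here replicate 1 of multiplex exceeded every simplex replicate and the other two lay below them all.

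TS121-D had the widest spread. Its multiplex replicates were at 0.815%, 0.367% and 0.443%, against 0.834%, 0.037% and 0.945% in simplex, and the ratio was 0.895 (exact permutation p = 0.8, adjusted 0.8). Simplex replicate 2 had 1 of its 21 values above 0 at this target, A11 in arm 5 at 0.78%, while at TS112-A the same replicate number was the highest of the simplex table. The SD between replicates of an arm, averaged over the arms, was 0.398 percentage points in multiplex and 0.728 in simplex at TS121-D, against 0.191 in multiplex and 0.170 in simplex at TS60-A.

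**Figure D2:**
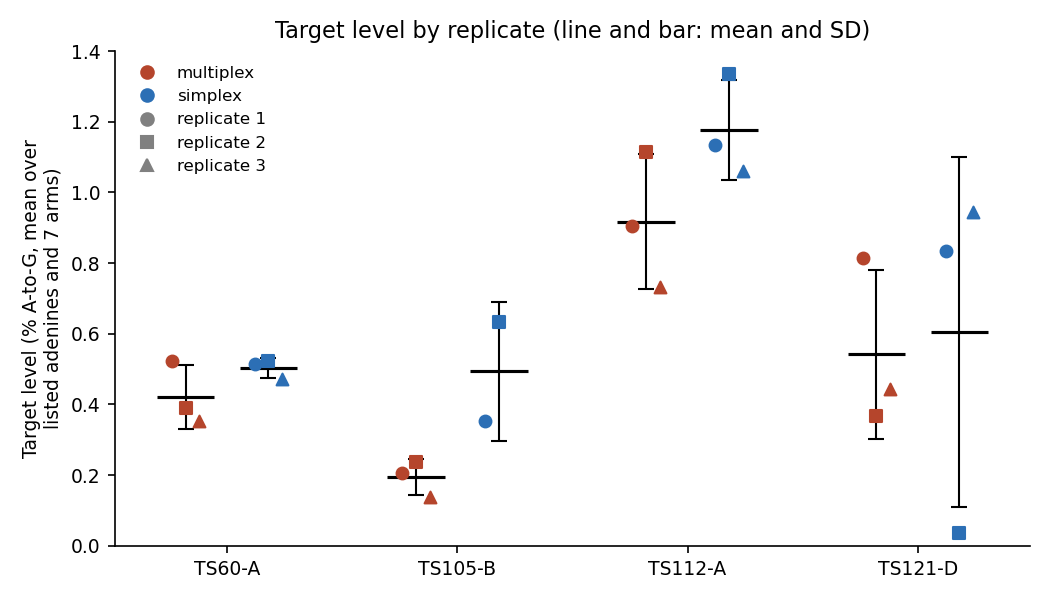
Target level (y axis, % A-to-G averaged over the listed adenines and 7 arms) of each replicate at 4 targets (x axis), multiplex in red left of simplex in blue, with symbols for replicate numbers and black lines and bars for mean and SD (n = 3, or 2 for simplex TS105-B). The replicates separate only at TS105-B, and simplex replicate 2 of TS121-D sits near 0.

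The share of the summed level held by each target removes a factor common to the targets of a replicate, where there is one. In both tables a share also moves when another target changes, and in simplex the targets come from separate transfections. The shares use the same values as the target levels and are not separate evidence. TS105-B held 8.43%, 11.2% and 8.29% of the sum in the multiplex replicates, against 12.5% and 25.0% in the 2 simplex replicates with values at all 4 targets. The groups did not overlap at this target alone, with a difference of -9.44 percentage points (exact permutation p = 0.1, adjusted 0.4). Without simplex replicate 2, the replicate at 25.0%, the difference was -3.17 points, and in that same replicate TS121-D held 1.47% of the sum. TS112-A held the largest share in both tables, 44.6% ± 7.99 in multiplex (SD, n = 3) and 46.4% ± 9.12 in simplex (SD, n = 2). TS60-A held 20.3% ± 1.62 in multiplex and 19.4% ± 1.76 in simplex. The share of TS121-D was 25.8% ± 7.94 in multiplex and 15.4% ± 19.7 in simplex, where the other replicate was at 29.4%.

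By adenine, the mean was lower in multiplex at 11 of the 14 and higher at 3, which were A7 and A15 of TS60-A and A9 of TS121-D. The replicates did not overlap at 2 adenines (14.3% of those tested), A9 of TS60-A and A8 of TS105-B, both lower in multiplex, and overlapped at the other 12. None passed a Benjamini-Hochberg adjusted p of 0.05, and none had an unadjusted exact permutation p under 0.05, which the design does not allow. With 3 replicates against 3 and no ties, random labels separate the replicates of an adenine at a rate of 0.1. With the 2 simplex replicates of TS105-B they do so more often. The 14.3% is near that rate and is not read as a result about these adenines.

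**Figure D3:**
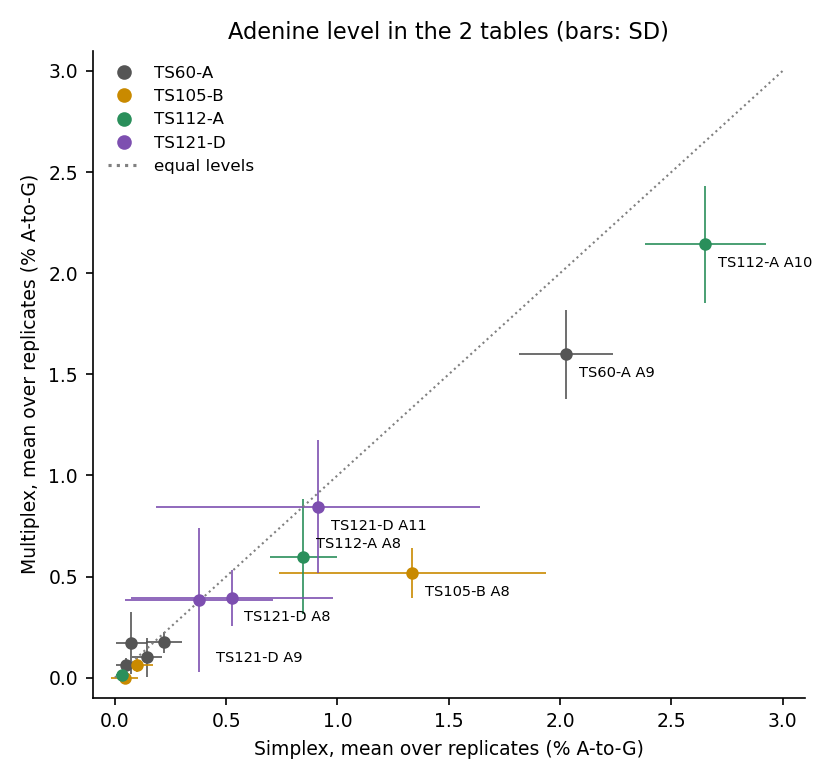
Mean A-to-G conversion of each of the 14 adenines in multiplex (y axis, %) against simplex (x axis, %), with SD over replicates as bars, colours for targets and a dotted line at equal levels. A10 of TS112-A, A9 of TS60-A and A8 of TS105-B lie below the line, the last with a ratio of 0.387.

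A9 of TS60-A follows a cytosine and averaged 1.82%, 1.60% and 1.38% over the arms in the multiplex replicates, against 2.25%, 2.01% and 1.83% in the simplex replicates. All 3 multiplex replicates were the lower ones, with a ratio of 0.789 (exact permutation p = 0.1, adjusted 0.7). In arm 6, the values were 4.65%, 2.85% and 2.46% in multiplex and 4.36%, 5.35% and 5.70% in simplex.
Arm 5 gave 5.01%, 2.53% and 3.14% in multiplex and 6.84%, 3.63% and 4.63% in simplex, and arm 4 gave 1.72%, 5.09% and 2.75% in multiplex and 2.98%, 4.17% and 1.92% in simplex. In both tables these 3 arms held every value above 1.06% at this adenine. Arm 3 stayed at 0.29%, 0.52% and 0.62% in multiplex and 0.54%, 0.70% and 0.53% in simplex. Arm 2 had 1.06%, 0.21% and 0.69% in multiplex and 1.00%, 0.22% and a listed 0 in simplex, and arms 1 and 7 were listed at 0 in every replicate of both tables. With the median over arms in place of the mean, the difference at A9 turned to 0.013 percentage points.

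A8 of TS105-B, also after a cytosine, averaged 0.570%, 0.607% and 0.376% in the multiplex replicates, against 0.913% and 1.76% in the simplex replicates. The ratio of means was 0.387 (exact permutation p = 0.1, adjusted 0.7). In arm 6 the values were 1.17%, 1.65% and 0.48% in multiplex and 1.31% and 6.47% in simplex.
Arm 5 gave 1.25%, 0.44% and 1.36% in multiplex and 2.73% and 4.21% in simplex. Arms 5 and 6 hold the values above 2% of the simplex table here, and no multiplex value reached 2%. Arm 4 gave 0.78%, 0.88% and 0.46% in multiplex and 1.15% and 0.22% in simplex, and arm 3 gave 0.79%, 1.03% and 0.33% in multiplex and 1.20% and 0.81% in simplex. A8 was above 0 in 13 of 21 multiplex columns (61.9%) and 10 of 14 simplex columns (71.4%). Without simplex replicate 2 the difference was -0.40 percentage points, against -0.82 with all replicates.

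A10 of TS112-A follows a thymine and was the most converted adenine of both tables. Its replicate means were 2.05%, 2.46% and 1.91% in multiplex, against 2.63%, 2.94% and 2.39% in simplex. Multiplex replicate 2 lay just above simplex replicate 3, and the ratio was 0.808 (exact permutation p = 0.2, adjusted 0.778).
Arm 6 gave 6.56%, 10.98% and 4.65% in multiplex and 10.75%, 10.19% and 5.95% in simplex. Arm 5 gave 4.21%, 3.40% and 4.49% in multiplex and 5.82%, 6.06% and 6.47% in simplex. The highest value of this adenine was in arm 6 in both tables. Arm 4 gave 2.70%, 1.61% and 3.41% in multiplex and 1.25%, 2.97% and 2.95% in simplex, and arm 3 gave 0.70%, 0.97% and 0.57% in multiplex and 0.58%, 0.97% and 1.12% in simplex. Arm 2 was above 0 in all 3 multiplex replicates, at 0.20%, 0.29% and 0.25%, and in 1 of 3 simplex replicates, at 0.37%. These are values at the size of the smallest listed one.

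A11 of TS121-D, after a thymine, had replicate means of 1.19%, 0.804% and 0.539% in multiplex and 1.09%, 0.111% and 1.54% in simplex. The ranges overlapped widely and the ratio was 0.926 (exact permutation p = 1). In arm 6 the values were 4.55%, 2.66% and 3.18% in multiplex and 5.18%, 0 and 2.18% in simplex.
Arm 5 gave 3.80%, 0 and 0.59% in multiplex and 0.46%, 0.78% and 5.87% in simplex, and arm 4 gave 0, 2.97% and 0 in multiplex and 1.98%, 0 and 1.04% in simplex. Single replicates of one arm thus ran between a listed 0 and several percent in both tables. At this adenine 1 arm was above 0 in all replicates of each table, compared with 5 arms in multiplex and 4 in simplex at A10 of TS112-A.

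**Figure D4:**
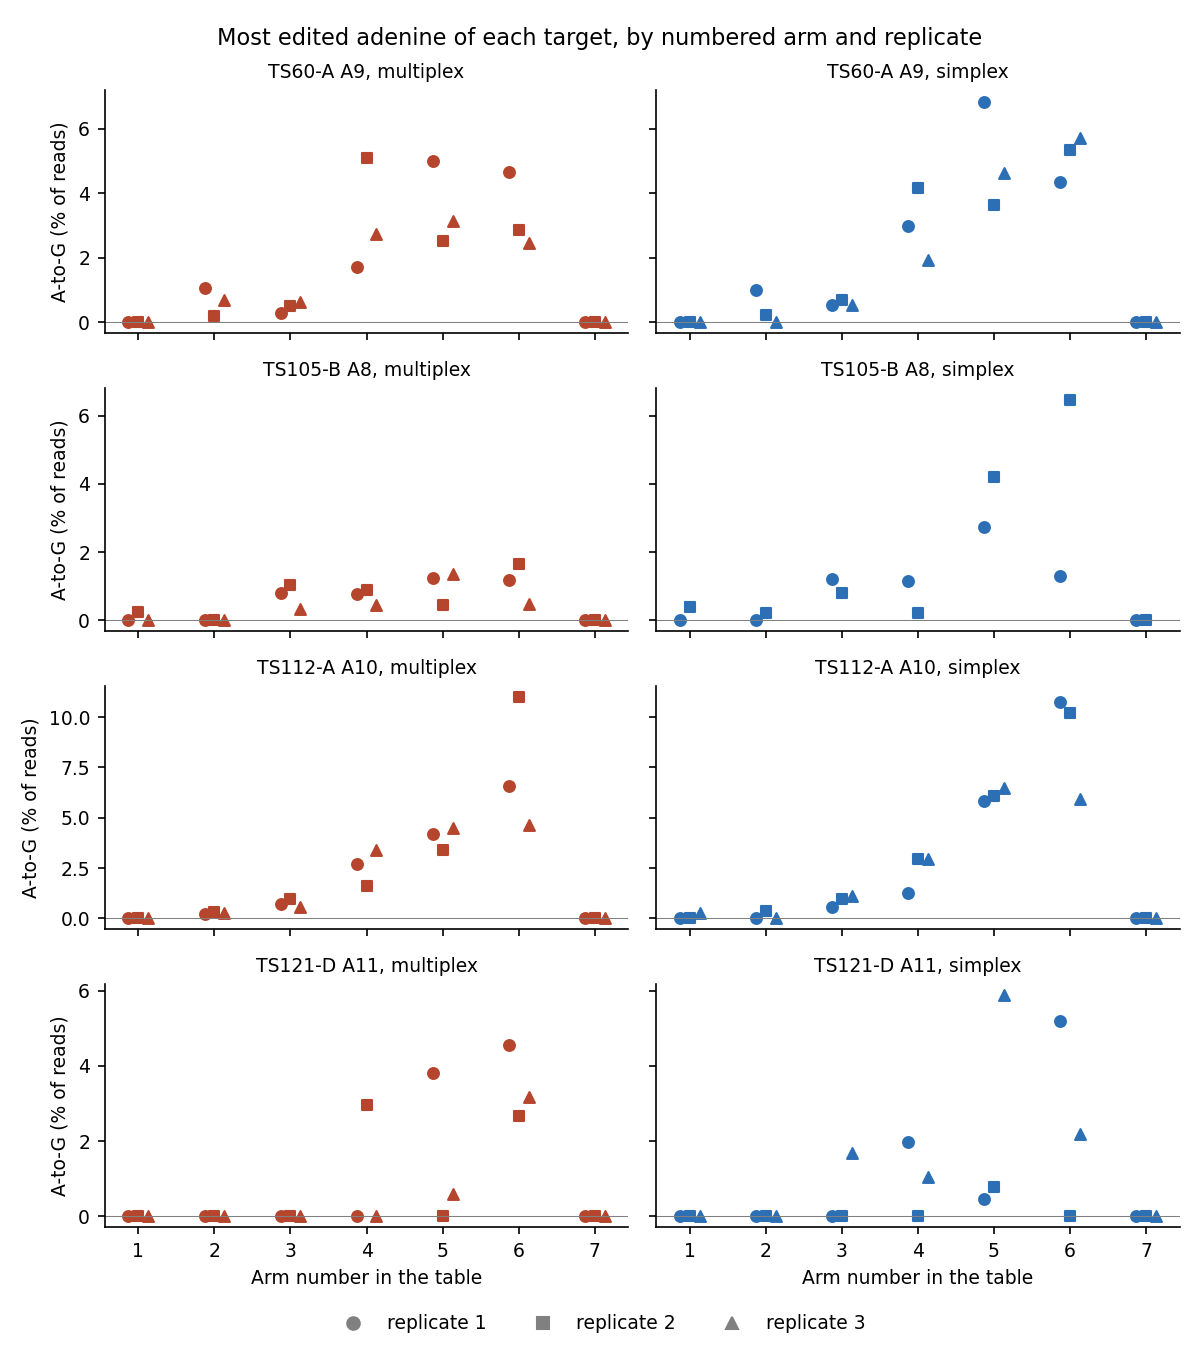
A-to-G conversion (y axis, % of reads) of the most converted adenine of each target (rows) by arm number (x axis), multiplex in red in the left column and simplex in blue in the right column, with a symbol for each replicate. The highest value of each panel lies in arm 4, 5 or 6, arms 1 and 7 lie at or near 0, and single replicates of TS121-D A11 run between 0 and 3.80% in arm 5 of multiplex and between 0 and 5.18% in arm 6 of simplex.

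The other adenines are bystanders, converted beside the leading one. A8 of TS112-A, which follows an adenine, had the highest mean percent of them in both tables. Its replicate means were 0.666%, 0.841% and 0.289% in multiplex and 0.773%, 1.02% and 0.750% in simplex, with overlapping ranges. Relative to A10 of the same replicate it reached 32.4%, 34.1% and 15.1% in multiplex and 29.4%, 34.7% and 31.3% in simplex. At TS121-D, A8 averaged 0.395% ± 0.138 in multiplex and 0.526% ± 0.455 in simplex, and A9 averaged 0.385% ± 0.355 in multiplex and 0.378% ± 0.333 in simplex (SD, n = 3 each). Relative to A11 of the same replicate, A8 reached 46.3%, 36.9% and 62.3% in multiplex and 72.2%, 0 and 51.4% in simplex. A9 reached 58.7%, 0 and 84.4% of A11 in multiplex and 57.7%, 0 and 32.9% in simplex, so by this measure the averages of A8 exceeded those of A8 of TS112-A in both tables. Both were listed at 0 in every arm of simplex replicate 2, and A9 also in every arm of multiplex replicate 2.

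The weaker bystanders had means between 0 and 0.174% in multiplex and between 0.031% and 0.222% in simplex. At TS60-A, A11 was above 0 in 5 of 21 multiplex and 6 of 21 simplex columns, and A10 in 4 of 21 columns of each table. A15, the listed adenine farthest from the PAM, was above 0 in 5 multiplex columns, up to 2.09%, and in 3 simplex columns, up to 0.63%. Its replicate means of 0.333%, 0.033% and 0.146% in multiplex overlapped those of 0, 0.079% and 0.140% in simplex. A7 was above 0 in 3 multiplex and 2 simplex columns at TS60-A, and in 1 multiplex and 2 simplex columns at TS112-A. At TS105-B, A9 had no value above 0 in the 21 multiplex columns, and it was above 0 in 1 of 14 simplex columns, at 0.61%. A11 of TS105-B was above 0 in 4 of 21 multiplex and 3 of 14 simplex columns.

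How often conversion was seen did not separate the tables. Over the 11 adenines with values in every replicate, 33.8%, 27.3% and 28.6% of the 77 values of a multiplex replicate were above 0, against 26.0%, 23.4% and 35.1% in simplex. The means were 29.9% ± 3.44 in multiplex and 28.1% ± 6.14 in simplex (SD, n = 3 each, exact permutation p = 0.7). The upper end differed more. Values of 5% or more numbered 2, 3 and 0 in the multiplex replicates and 5, 4 and 4 in the simplex replicates, which did not overlap (exact permutation p = 0.1). This limit was chosen after the values were seen, and at 3% or more the counts of 9, 4 and 6 in multiplex and 8, 6 and 7 in simplex overlapped (exact permutation p = 0.9).

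Within each table the arms differed. The level of a column was averaged over TS60-A, TS112-A and TS121-D, and a permutation test of the Kruskal-Wallis statistic over the 21 columns gave p = 1e-05 in multiplex and p = 1e-05 in simplex, the smallest that 100000 resamples can give. In multiplex, arm 6 averaged 2.45% ± 0.653, arm 5 1.11% ± 0.484 and arm 4 0.619% ± 0.207 (SD, n = 3 each). In simplex, arm 6 averaged 2.78% ± 0.810, arm 5 1.62% ± 0.649 and arm 4 0.642% ± 0.106. Arms 5 and 6 did not overlap between replicates in multiplex, but did in simplex, where arm 5 reached 2.36% and arm 6 went down to 2.24%. Arm 3 averaged 0.128% in multiplex and 0.221% in simplex, and arm 2 averaged 0.071% in multiplex and 0.055% in simplex. Arm 1 had 1 of 42 multiplex values and 2 of 39 simplex values above 0, none over 0.40%. Arm 7 had 1 of 42 multiplex values above 0, at 0.20%, and none of 39 in simplex. Numbers 2 to 6 thus stood in the same order in both tables, which is given as a description because the numbers are not known to denote the same constructs.

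The breadth of conversion differed by arm number too, but it is counted from the same values as the level and is not a separate result. Arm 6 was above 0 at 33 of 42 values (78.6%) in multiplex and 26 of 39 (66.7%) in simplex, and reached 13 of the 14 adenines in at least 1 multiplex replicate and 12 in simplex. Arm 5 reached 11 adenines in multiplex and 10 in simplex, arm 4 reached 5 in multiplex and 9 in simplex, and arm 3 reached 4 in multiplex and 6 in simplex. Arm 2 reached 2 in multiplex and 4 in simplex, arm 1 reached 1 in multiplex and 2 in simplex, and arm 7 reached 1 in multiplex and 0 in simplex.

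In multiplex the 4 targets of a column come from one transfected cell population, and in simplex from separate ones. Deviations of a replicate from its arm mean were correlated between pairs of targets over the columns to see whether targets went up and down together. The 6 pairs had Pearson r between -0.31 and 0.80 with a median of 0.16 in multiplex (n = 21 columns), and between -0.88 and 0.49 with a median of 0.08 in simplex (n = 14 or 21 columns). The highest multiplex value belonged to TS60-A with TS121-D and the lowest to TS112-A with TS121-D. Both simplex extremes involved TS105-B, the lowest with TS121-D and the highest with TS60-A. Deviations within an arm sum to 0, so columns are not independent. With 2 simplex replicates, the TS105-B deviations of an arm are equal and opposite. Some arms sit at or near 0 and move little. In multiplex 15 to 21 of the 21 columns deviated at 1 or both targets of a pair. In simplex 12 of 14 columns did, or 15 to 18 of 21. No order between the tables is read from these correlations.

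Equal percentages recurred at different adenines of a target within a column. Of the pairs of adenines of one target that were both above 0 in a column, 3 of 56 had the same value to 2 decimals in multiplex and 7 of 49 in simplex. For pairs from different targets the counts were 0 of 228 in multiplex and 0 of 165 in simplex. In arm 6 of simplex replicate 3, for instance, A8, A9 and A11 of TS121-D were all at 2.18%, and in arm 6 of multiplex replicate 3, A9 and A11 were both at 3.18%. That simplex column alone supplies several of the 7 equal simplex pairs. Pairs are thus not separate events, and the counts are not compared between the tables. This comparison was chosen after the values were seen.

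An earlier multiplex experiment with one editor, TadA8e with LbCas12a(D156R-D832A), gave values at 11 of the 14 adenines. Its levels were 1.33% ± 0.513 for TS60-A A9, 0.600% ± 0.694 for TS105-B A8, 3.88% ± 0.472 for TS112-A A10 and 0.963% ± 0.834 for TS121-D A11 (SD, n = 3 replicate columns of 1 deposited sample). A8 of TS112-A averaged 0.163% and the other 6 adenines were listed at 0 in all replicates. The leading adenine of each target was the same as in both tables. At TS60-A, TS105-B and TS121-D it was the only adenine above 0. The study first tried 6 targets with such an editor and went on with the 4 best. These targets were thus picked with editing known, and the match is a description only. Since that experiment used 1 editor and the tables average over 7 arms, the levels are set side by side without a test.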

How the data were processed

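The authors sorted transfected protoplasts on GFP, amplified each target from the sorted cells, demultiplexed paired-end reads by index and quantified conversion with CRISPResso2. The deposited tables give A-to-G conversion in percent of reads for each adenine, numbered arm and replicate, and per the file headers for the perfectly matched site only. Read depth and molecular identifiers are not part of these values, so counting error could not be set. Replicate numbers of the columns were matched to the library numbers in the sample titles. The study calls replicates independent biological replicates.

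Levels were averaged over arms and adenines within each replicate, the unit of every test between the tables. The tests were two-sided exact permutation tests of the replicate labels, with Benjamini-Hochberg adjustment over the 4 targets or the 14 adenines, and a Kruskal-Wallis statistic permuted over columns (100000 resamples) within a table. No pseudocount or filter was used in the reported values. Values by column are given for the leading adenine of each target and for adenines whose replicates did not overlap. The alternatives were a log2 scale with a pseudocount of 0.1%, medians or the highest arm, 0 set to 0.1%, columns as units, the leading adenine only, a replicate block and leaving out each replicate. The members and lists were chosen with earlier results of these data known. Spacers come from the study's list of target sites, and none of the 4 gene identifiers was found in the RefSeq gene table (0 matched). In the earlier multiplex table, 1 value column with no mapped sample was not used. Python 3.11.15, NumPy 2.4.6, SciPy 1.17.1 and Matplotlib 3.10.9 were used, and the functions were tested on simulated data.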

Additional observations from a re-analysis of the deposited data

How the results depend on the processing

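The lower all-target level in multiplex kept its direction in all 14 alternatives. Its differences ran from -0.20 to -0.08 percentage points when 1 replicate was left out. The lower TS105-B and TS112-A levels kept theirs in all 13, with -0.44 to -0.16 and -0.36 to -0.17. Some of these alternatives could not turn a direction. Using columns as units changes only the p, and so does the replicate block where every replicate has values. Leaving out simplex replicate 3 changes nothing at TS105-B, which has no values there. No alternative brought a difference between the tables under an adjusted p of 0.05. Only columns as units could have done so, and it counts the arms of a replicate as separate units. The other alternatives cannot give a p below 0.1, so their p values add nothing here. In both tables the arms differed in each of 6 alternatives.

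The difference at TS60-A turned positive on the log2 scale (0.018) and with the median over arms (0.0027 percentage points), and ran from -0.13 to -0.05 when 1 replicate was left out. At TS121-D it ran from -0.35 to 0.11, positive without multiplex replicate 2 (0.02), simplex replicate 1 (0.05) or simplex replicate 3 (0.11). The share of values above 0 ran from -0.65 to 5.19 points when 1 replicate was left out, and was lower in multiplex at limits of 0.5% (-1.73), 1% (-2.16), 3% (-0.87) and 5% (-3.46), but not at 2% (0.43). The limits of 2%, 3% and 5% were chosen after seeing the data. The share held by TS112-A was 1.64 points higher in multiplex for the leading adenine, and ran from -8.23 to 4.66 without 1 replicate, against -0.34 to 2.15 for TS60-A, -15.7 to -3.17 for TS105-B and -3.64 to 24.3 for TS121-D. With the highest value per adenine, rho between the tables was 0.83, and without 1 replicate 0.92 to 0.97.

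Among adenines, 13 of 168 alternatives turned a direction, where a difference of exactly 0 did not count as a turn. With the median over arms, most adenines had a difference of 0. The turns on the log2 scale were at A8 (0.13) and A9 (-0.066) of TS121-D, and with the median over arms at A9 of TS60-A (0.013). Without 1 replicate, A7 of TS60-A ran from -0.013 to 0.032, A11 of TS105-B from -0.087 to 0.012, and A8, A9 and A11 of TS121-D from -0.39 to 0.0024, -0.18 to 0.20 and -0.47 to 0.25. The causes were not tested.

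No label says that a replicate number marks a shared batch. Deviations of same-numbered replicates over 11 adenines correlated at 0.72, 0.58 and -0.02, and those of different numbers between -0.79 and 0.65. Replicate 3 of multiplex did not correlate best with its own number, so the numbers were not treated as pairs. With the replicate block the all-target difference was -0.14 percentage points, and no call changed. A block of 3 pairs cannot give a p below 0.25. The limits are the 3 replicates for each delivery, the missing simplex replicate at TS105-B, the unknown depth, and the experiment that cannot be told apart from delivery.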
